A study of Homo sapiens with 30 samples.

Results

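The mRNAs of the actin cytoskeleton examined here were followed through the peak lists of myc-tagged LARP6 and its deletion mutants. They are the 10 genes ACTB, ACTG1, PFN1, TMSB4X, TMSB10, CFL1, TPM1, TPM4, ACTN1 and ACTN4, of 62750 genes counted. The members were chosen by their function and selected on peak scores, since ACTB was known to hold the highest-scored peak of the full-length list, and these scores are given as a description only. A peak was counted for a member when its centre lay in the gene on the same strand (GRCh38, GENCODE 44), which gave 92 of 14334 peaks in the full-length list.

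The cells were U-87 MG, an established human glioblastoma line, with doxycycline-induced, codon-optimised and myc-tagged LARP6 expressed from a stably integrated lentiviral cassette. There were 5 variants: the full protein (FL), ΔCTR without the C-terminal region, ΔNTR without the disordered N-terminal region (NTR), ΔLa-module without the folded La-module, and ΔNTD without both NTR and La-module. Induction was at 60 ng/mL for 24 h, all lines kept their own LARP6, and parental cells without a variant were the negative control. Each variant had 1 iCLIP peak list merged from 3 replicates with the parental peaks subtracted, and each of the 6 lines had 1 paired-end library of 150 nt reads from total RNA, called the input here. With 1 list and 1 input library per line there was no spread between replicates, so no p-value is given and every interval below is a 95% interval that covers counting error only.

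Actin monomers assemble into filaments, and cells move and hold their shape by building and dismantling those filaments. Profilin and the β-thymosins bind the monomers, cofilin severs filaments, tropomyosins run along them and α-actinins cross-link them. LARP6 is a La-related RNA-binding protein, best known for binding collagen I mRNAs, and β-actin mRNA is a classic example of an mRNA localised through an element in its 3′UTR.

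In these lists the members differed widely. ACTB carried its FL score in a single called peak in the 3′UTR, whereas ACTG1, which encodes an almost identical actin, had called peaks in the 5′UTR, the coding sequence and the 3′UTR. Without the NTR, the ACTB and TPM1 shares of the list were lower than in FL and those of ACTG1, PFN1 and CFL1 were higher. The higher shares of PFN1 and CFL1 were not beyond counting error once the input difference was subtracted. Without the CTR, ACTB was higher and PFN1, TPM4 and TPM1 were lower, TPM4 not at the sites shared by the lists. With the input difference subtracted, the lower TPM1 share was not beyond counting error, while those of CFL1 and ACTN4 were. The input level of every member differed from parental cells by less than 0.32 on the log2 scale in all 5 lines.

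The sites on which these results turn are shown first, 5′ to 3′, as 30 nt of GRCh38 around the centre of the peak, with the longest run of C and T in capitals. The first 5 are the highest-scored FL peaks of the 5 members with an FL score of at least 100, and the last is the highest ΔNTR peak in a member that no FL peak overlapped.
ACTB 3′UTR, chr7:5527485-5527514, minus strand: gTTTTTTTaatagtcattccaaatatgaga
ACTG1 3′UTR, chr17:81510340-81510369, minus strand: ttggtgagtctgtgtggccagcagCCTCTg
PFN1 5′UTR, chr17:4948499-4948528, minus strand: agcgagcggagccgcggTCCggacggcagc
TPM1 3′UTR, chr15:63071711-63071740, plus strand: caTTCCTTTCTgattggcacacgtgcagct
ACTN4 3′UTR, chr19:38729966-38729995, plus strand: caagcaccccgCTTTTgcagcagaggagct
ACTG1 3′UTR, ΔNTR peak, chr17:81510424-81510453, minus strand: TCTTTgagttcaacctttagtacgtgtggc
The windows differed in base composition. The longest run of C and T was 9 nt in TPM1 and 3 nt in PFN1, and over all 92 FL member peaks C and T made up 51.6% of the 31 nt around the centre, against 52.5% over all FL peaks. A run of 7 T lay in 3 of 45 FL member peaks in the 3′UTR (6.67%), against 2.7% of all FL peaks there, a motif chosen after these sequences were seen. Each of the 5 FL windows occurred once in the genome. The window at the highest FL peak of TMSB4X, which is not shown, occurred 4 times.

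In the FL list the members held a summed score of 3505, or 3.41% of the list (3.30 to 3.52%). The score of a peak is the authors' sum of crosslink-based peak scores over the 3 replicates, at least 3 in every list, and the share is its part of the list's total. In the ΔNTR list the members held 2.72% (2.62 to 2.83%) and in the ΔCTR list 3.89% (3.78 to 4.00%). The same genes made up 1.78% of the input counts in the FL line, 1.89% in ΔNTR and 1.85% in ΔCTR. In the ΔLa-module list, with 14 member peaks of 636, their share of score was 2.11% (1.60 to 2.78%), beside 1.95% of the input. In the ΔNTD list, with 3 of 291 peaks, it was 1.30% (0.762 to 2.21%), beside 1.89% of the input. Without ACTB the other 9 members held 1.37% of the FL score beside 1.12% of the input, 1.52% beside 1.17% for ΔNTR and 1.12% beside 1.15% for ΔCTR. The ΔLa-module values were 1.77% beside 1.20%, and those of ΔNTD 1.30% beside 1.19%. For ΔCTR the share of score was then no longer above that of the input.

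Every member had at least 1 peak in FL, ΔNTR and ΔCTR. Of protein-coding genes at 1 CPM (TMM-scaled counts, relative to library size) or more, 38.6% (FL), 39.2% (ΔNTR) and 41.1% (ΔCTR) had a peak. Among those as abundant as the lowest member, TPM1, the shares were 94.3%, 94.8% and 94.3%, so 10 of 10 was close to the background of genes at that level. In the ΔLa-module list 6 of 10 members had a peak, against 30.8% of genes as abundant (3.69% of those at 1 CPM or more), and in ΔNTD 2 of 10, against 15.9% (1.98% at 1 CPM or more).

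**Figure D1:**
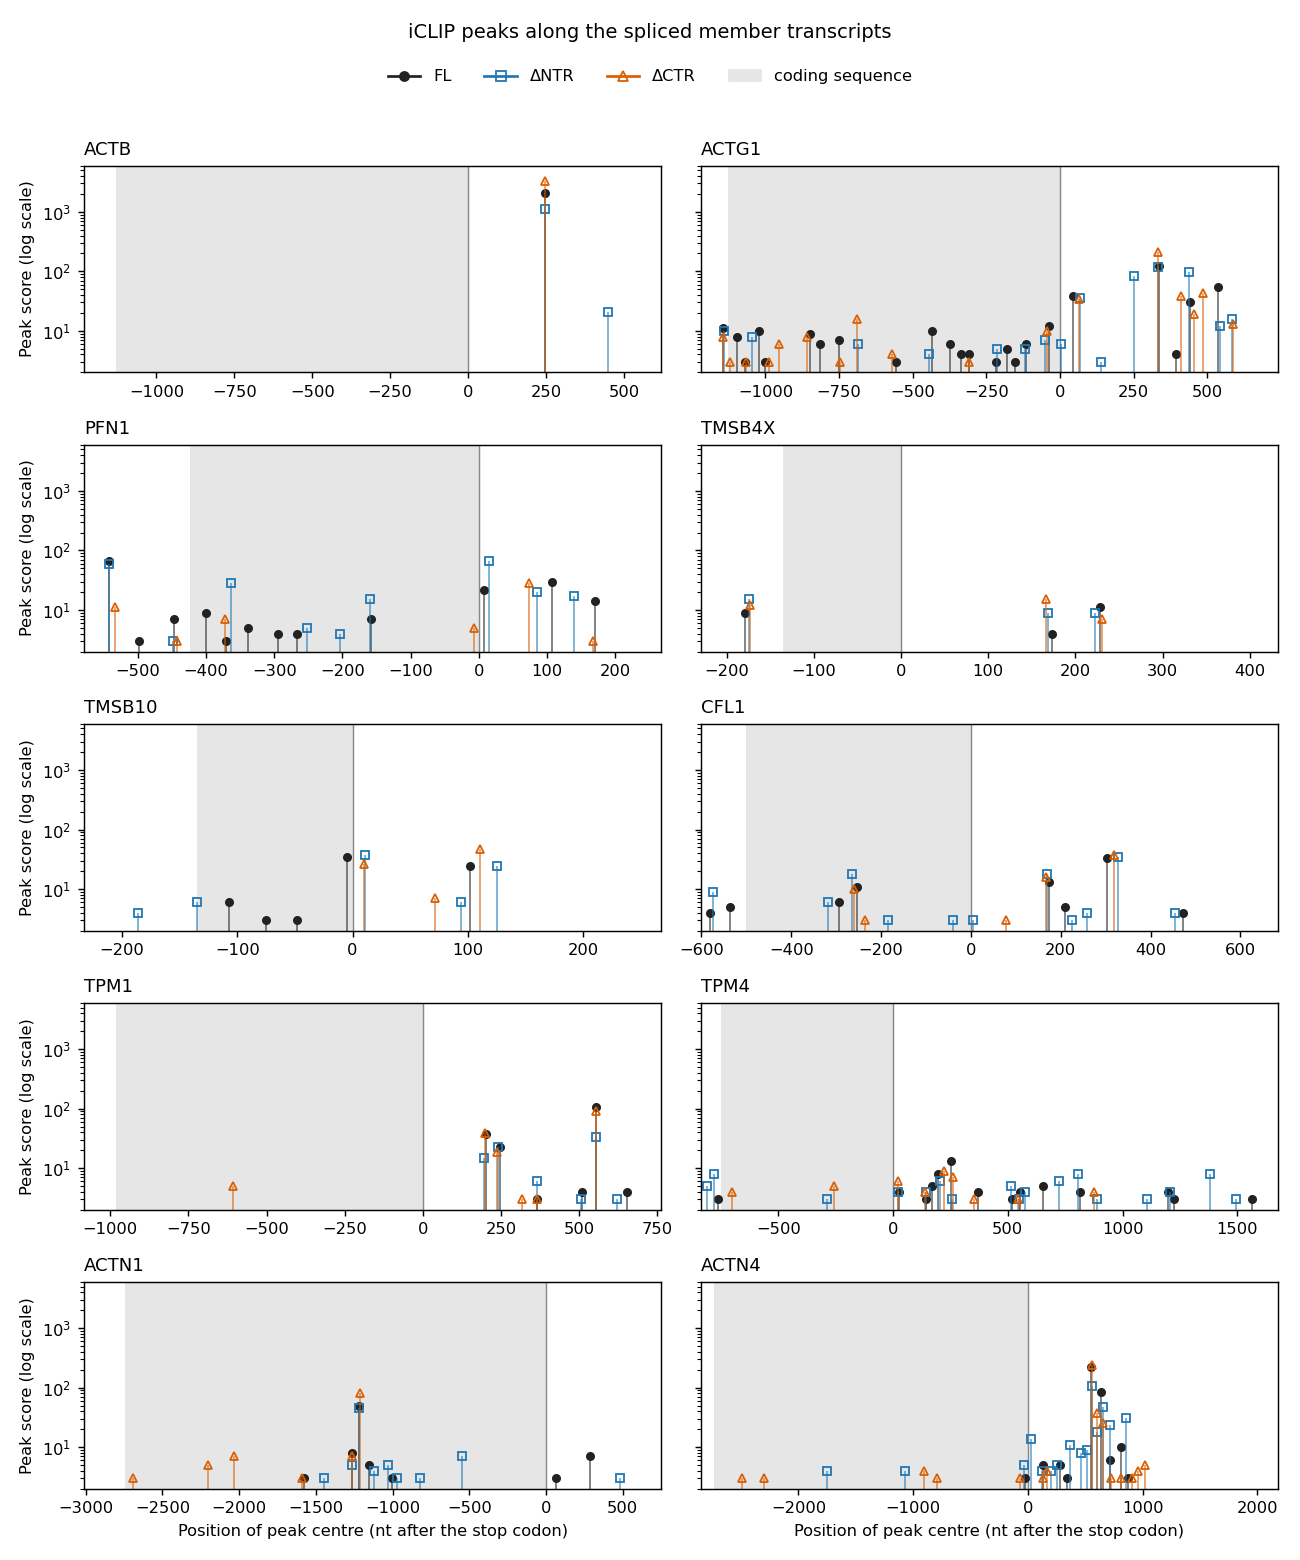
Peaks of the FL, ΔNTR and ΔCTR lists along each spliced member transcript, with the position of the peak centre in nt after the stop codon on the x axis and the peak score on a log y axis; the grey band is the coding sequence and peaks outside the transcript shown are left out. ACTB has its highest peak at 1 position, with scores of 2098, 1099 and 3293, and a second ΔNTR peak of 21, while ACTG1, PFN1 and TPM4 have peaks along much of their length.

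Of the 2 cytoplasmic actins, ACTB (β-actin, chr7:5526409-5563902) had 1 FL peak, at chr7:5527485-5527516 in exon 6 of 6. Its centre lay 248 nt after the stop codon in a 3′UTR of 600 nt, and it scored 2098, while the next peak of the FL list scored 720. The ΔNTR peak at that site was 1099, the ΔCTR peak 3293 and the ΔLa-module peak 4, and no ΔNTD peak lay in ACTB. The site was also the highest of the ΔNTR list, where the next scored 309, and of the ΔCTR list, where the next scored 780. ΔNTR had a second ACTB peak of 21, at 449 nt after the stop codon, and ΔLa-module a second one of 4, at 143 nt after it. A gene with its whole score in 1 peak was uncommon, as 12 of the 192 genes with an FL score of at least 100 had only 1 (6.25%), and the highest peak of those genes held 37.4% of their score in the median. The lists hold called peaks only, with parental peaks removed. Whether the calling or this removal left out weaker ACTB sites was not tested.

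The known localisation element of ACTB mRNA lies just after the stop codon, and its letters CGGACT and ACACCC are in capitals here.
ACTB 3′UTR start, chr7:5527718-5527747, minus strand: gCGGACTatgacttagttgcgttACACCCt
No peak of any of the 5 lists overlapped either motif in ACTB. The FL peak began 232 nt after the stop codon, leaving 201 nt between the printed window and the peak. CGGACT was present in 5.53% of 18649 annotated 3′UTRs on this strand and ACACCC in 25.1%, and ACTB alone held both in its first 30 nt. ACTG1 has CGGACT at the same distance from its stop codon, where an FL peak of 39 and a ΔNTR peak of 6 covered it and no ΔCTR peak did. That FL peak is 107 nt wide and centred 43 nt after the stop codon. Its part further from the stop codon was overlapped by a ΔNTR peak of 36 and a ΔCTR peak of 34. The 3 scores at the motif therefore depend on how a broad peak was divided and do not compare binding there.

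ACTG1 (γ-actin, chr17:81509413-81523847) had 23 peaks with a summed score of 364 in FL, 16 with 417 in ΔNTR and 17 with 424 in ΔCTR. Its highest peak, 335 nt after the stop codon at chr17:81510319-81510391, scored 123, 117 and 210 in these lists. In FL 17 of the 23 peaks were in the coding sequence, with scores from 3 to 12, and the 5 in the 3′UTR held 69.0% of the score. In ΔNTR 6 peaks were in the coding sequence and 8 in the 3′UTR, which held 88.5%. ACTB had no peak in its coding sequence in any list. The coding sequences of the 2 actins are each 1128 nt and were identical at 91.2% of positions, with an identical run of up to 59 nt, so reads from such stretches could not be assigned to 1 actin and their part in the number of coding peaks was not tested. The 3′UTRs shared no stretch of 20 nt.

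ACTG1 also held the highest of the 12017 ΔNTR peaks that no FL peak overlapped. It scored 83 and lay 251 nt after the stop codon, at chr17:81510417-81510461. The ΔLa-module list had a peak of 3 there, and the FL, ΔCTR and ΔNTD lists had none. The ACTB peak of 21 was the 10th highest of the same 12017.

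Of the genes whose products hold monomers, PFN1 (profilin 1, chr17:4945652-4949061) had 15 peaks with a summed score of 194 in FL, 10 with 223 in ΔNTR and 7 with 60 in ΔCTR. Its highest FL peak, at chr17:4948487-4948541, is centred at nt 17 of the transcript, in the 5′UTR. Its scores were 66 (FL), 59 (ΔNTR) and 11 (ΔCTR). The neighbouring peak just upstream of this transcript, in an intron of the gene, at chr17:4948547-4948573, scored 15, 5 and 3. The FL peak of 22 just after the stop codon was overlapped by a ΔNTR peak of 67 and by ΔCTR peaks of 28 and 5. Scores in the 3′UTR summed to 65, 104 and 31 in the order FL, ΔNTR, ΔCTR, so the ΔCTR score was lower than the FL score at both ends of the mRNA. The 3′UTR held 33.5%, 46.6% and 51.7% of the score.

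A lower ΔCTR share at 5′UTR sites was also seen over all genes. At sites where exactly 1 peak of each of FL, ΔNTR and ΔCTR overlapped, the median log2 share of ΔCTR minus FL was -0.27 over 84 sites in 5′UTRs, -0.12 over 833 in coding sequences and -0.08 over 1136 in 3′UTRs. With an FL score of at least 10 it was -0.87 over 42 sites in 5′UTRs, -0.33 over 333 in coding sequences and -0.21 over 481 in 3′UTRs, so all 3 were lower at this limit. The limit selects on the FL score that each difference is taken from, which by itself tends to lower the difference. The PFN1 site, which the annotation rule placed in the coding sequence through another transcript, stood at -2.79 (-3.86 to -1.86). In ACTG1 and TMSB4X the 5′UTR sites of this kind stood at -0.67 (-2.19 to 0.78) and 0.21 (-1.16 to 1.63), and these intervals cannot tell a lower from a higher share.

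The β-thymosins sequester actin monomers. TMSB4X (chrX:12975110-12977227) had 3 peaks in each of the 3 lists, with summed scores of 24, 33 and 34 (FL, ΔNTR, ΔCTR), and none in ΔLa-module or ΔNTD. Its highest FL peak, 228 nt after the stop codon, scored 11, 9 and 7. TMSB10 (chr2:84905656-84906671) had 5, 5 and 3 peaks, summing to 71, 78 and 80. Its highest FL peak, across the stop codon at chr2:84906383-84906454, scored 35, 38 and 26, and a 3′UTR site that scored 24 in FL was the highest in ΔCTR with 47. Neither thymosin differed between FL and a deletion by more than its counting interval.

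CFL1 (cofilin 1, which severs and disassembles filaments, chr11:65823022-65862026) had 8 peaks with a score of 81 in FL, 11 with 105 in ΔNTR and 5 with 69 in ΔCTR. Its highest FL peak, 303 nt after the stop codon at chr11:65855013-65855053, scored 33, 34 and 37, and the log2 share differences from FL were 0.19 (-0.55 to 0.92) in ΔNTR and -0.04 (-0.76 to 0.68) in ΔCTR. A ΔLa-module peak of 6, at chr11:65855360-65855391 in the coding sequence, ranked 3rd of the 477 peaks in that list that no FL peak overlapped.

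Of the tropomyosins, which run along filaments, TPM1 (chr15:63042620-63071915) had 6 peaks with 179 in FL, 8 with 89 in ΔNTR and 6 with 159 in ΔCTR. All FL peaks were in the 3′UTR of a transcript that ends in the last of 10 exons, outside the MANE Select transcript. This transcript was chosen because its exons hold the most FL score, so that the peaks lie in it is no separate result. The highest FL peak, 553 nt after the stop codon at chr15:63071702-63071749, scored 107, 33 and 90 in these lists. The second, 201 nt after it, scored 38, 15 and 39, and the third, 248 nt after it, scored 23, 23 and 19. The ΔNTR score was therefore lower at the first 2 sites and equal at the third. TPM4 (chr19:16067021-16103002) showed the opposite layout, with 15, 18 and 9 peaks that summed to 73, 87 and 45 and none above 13. Neither tropomyosin had a peak in ΔLa-module or ΔNTD.

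Of the α-actinins, which cross-link filaments, ACTN4 (chr19:38647649-38731589) had 9 peaks with 343 in FL, 15 with 297 in ΔNTR and 15 with 346 in ΔCTR. Its highest peak, 548 nt after the stop codon at chr19:38729954-38730007, was the 10th highest of the FL list at 224. The ΔNTR peaks that overlapped it summed to 117, and the ΔCTR peak scored 241. In ΔNTR the score was spread over 12 peaks in the 3′UTR, against 8 in FL, and included a peak of 14 at 30 nt after the stop codon where FL and ΔCTR had none. ACTN1 (chr14:68874128-68979440) had its highest peak inside the coding sequence, in exon 14 of 22 at chr14:68884253-68884295, with scores of 49, 45 and 80. Its summed scores were 78, 81 and 111, of which the 3′UTR held 12.8%, 3.70% and 0%.

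By region, 45 of the 92 FL member peaks lay in 3′UTRs (48.9%, 38.9 to 59.0%), beside 47.6% of all FL peaks. In ΔNTR it was 57.1% of 98 (all peaks, 49.7%) and in ΔCTR 52.7% of 74 (all peaks, 50.8%). By score, 3′UTRs held 88.4% (FL), 86.1% (ΔNTR) and 94.3% (ΔCTR) of the members' total, and without ACTB 71.2%, 75.1% and 80.3%. Where a position could be both coding and 3′UTR in different transcripts it was called coding, and calling it 3′UTR raised the peak shares to 68.5%, 72.4% and 68.9%.

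ΔNTR peaks overlapped 64 of the 92 FL member peaks (69.6%, 59.5 to 78.0%) and ΔCTR peaks 48 (52.2%, 42.1 to 62.1%), against 35.3% and 37.9% of all FL peaks. Overlap was higher at higher scores. Of the 28 member peaks of at least 10, ΔNTR overlapped 28 and ΔCTR 26, and over all FL peaks of that score the shares were 88.2% and 93.2%. Of the 41 between those scores and the lowest they overlapped 25 and 15 (61.0% and 36.6%), against 43.5% and 47.7% over all genes. Of the 23 at the lowest score of 3, they overlapped 11 and 7 (47.8% and 30.4%), against 17.0% and 18.1% over all genes. The 2 peaks of at least 10 without a ΔCTR peak were both in the ACTG1 coding sequence, each with a score of 10. FL member peaks were overlapped by ΔLa-module in 8 cases (8.70%; all FL peaks, 1.08%) and by ΔNTD in 3 (3.26%; all, 0.502%). Highly scored peaks were more frequent among the members than in the list, and the part of score and abundance in these differences was not tested beyond the score classes given.

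**Figure D2:**
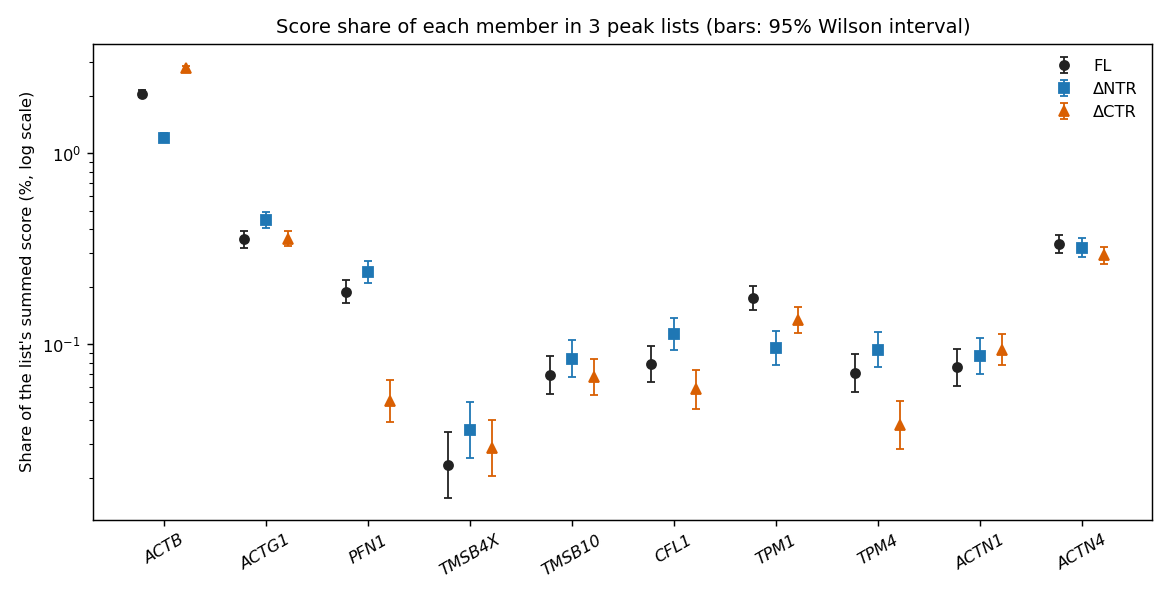
Share of each list's summed score (%, log axis) held by each member in FL, ΔNTR and ΔCTR, with 95% Wilson intervals as bars. ACTB lies at 2.04%, 1.20% and 2.77%, and PFN1 lies at 0.189% in FL and 0.0505% in ΔCTR.

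The score share of each member was compared between FL and ΔNTR to ask what loss of the disordered N-terminal region did to these targets. ACTB held 2.04% of the score in FL and 1.20% in ΔNTR, a log2 difference of -0.76 (-0.87 to -0.66). TPM1 held 0.174% and 0.0957%, a difference of -0.86 (-1.25 to -0.49). CFL1 went from 0.0788% to 0.113%, or 0.52 (0.09 to 0.96), PFN1 from 0.189% to 0.240%, or 0.35 (0.06 to 0.63), and ACTG1 from 0.354% to 0.449%, or 0.34 (0.13 to 0.55). The intervals of the other 5 members spanned 0. Of the 10 members 3 had an interval above 0 and 2 below it, beside 22.7% and 26.3% of the 803 genes whose scores in the 2 lists summed to 50 or more, and none was 2-fold apart, beside 21.7% of those genes. The member median was 0.31 and the median of all these genes 0.00. Of the 803 genes, 19.6% lay lower than ACTB and 15.4% lower than TPM1.

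The choice of total moved these differences. Set against the score at sites shared by the 3 lists, the ACTB difference was -0.25, that of TPM1 was -0.35 and those of the other 8 members were between 0.45 and 1.12, so of the 10 members only ACTN4, at -0.06 in the main comparison with an interval that spanned 0, changed sign. All 10 members together were at -0.33 (-0.40 to -0.25) in the main comparison, at 0.15 (0.04 to 0.26) without ACTB, and at 0.19 against the shared sites. The direction for the group therefore depended both on ACTB and on the choice of total.

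Between FL and ΔCTR, which asks the same of the C-terminal region, PFN1 differed most. Its share went from 0.189% to 0.0505%, a log2 difference of -1.90 (-2.34 to -1.48), and 0.442% of the 905 genes tested lay lower. TPM4 went from 0.0710% to 0.0379%, or -0.91 (-1.48 to -0.35), and stood at 0.35 when genes and lists were limited to shared sites, where TPM4 has 2. TPM1 went from 0.174% to 0.134%, or -0.38 (-0.70 to -0.06). ACTB went from 2.04% to 2.77%, or 0.44 (0.36 to 0.52). The other 6 members, ACTG1 and ACTN4 among them, had intervals that spanned 0. One member had an interval above 0 and 3 below it, beside 16.6% and 18.5% of the genes, and 1, PFN1, was at least 2-fold lower, beside 5.97%. The member median was -0.12 and that of all genes -0.03. All 10 members together stood at 0.19 (0.13 to 0.25), and without ACTB at -0.29 (-0.40 to -0.18).

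The 2 comparisons share the FL list, so no correlation between them is given. Among the 187 other genes with an FL score of at least 100, those nearest to ACTB in the pair of differences were ADAM12 (-0.87 and 0.49), ATL3 (-0.79 and 0.26) and RRM2 (-0.63 and 0.26), by Euclidean distance over the 2 differences from 3 lists. Their FL scores were 142, 140 and 107.

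The part of a gene's score held by its highest peak was lower in ΔNTR than in FL for 10 of 10 members, and 80.1% of the 317 genes scoring 50 or more in each list were lower too. Of the members, 9 pass that limit, and ACTB, at 100% in FL, could not be higher. The part went from 65.3% to 36.4% in ACTN4, from 59.8% to 37.1% in TPM1 and from 17.8% to 9.20% in TPM4, while in TMSB4X it went from 45.8% to 45.5%. The median difference was -6.50 percentage points over the members and -8.61 over all 317 genes. In ΔCTR the part was higher than in FL in 7 members and lower in 2, beside 47.5% and 49.1% of 387 genes, a set whose limit 8 of the members pass. It was 49.5% against 33.8% for ACTG1 and 46.7% against 34.0% for PFN1. The highest peak was not always at the same site. In PFN1 it was the 5′UTR peak of 66 in FL and a 3′UTR peak of 28 in ΔCTR. TMSB4X in ΔNTR and TMSB10 in ΔCTR also had it at another site than in FL. The ΔNTR difference of the members was thus near that of the whole list. In ΔCTR the member median was 6.80 points and the median of all genes 0.

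Scores were also divided by the input count of the gene in the same line and multiplied by 1000, the normalisation of the study. In FL this gave 18.6 (16.0 to 21.5) for TPM1, 13 for ACTN4, 11.4 (10.9 to 11.9) for ACTB and 11.3 (9.76 to 13) for PFN1. It gave 4.71 for ACTN1, 3.52 for CFL1, 2.93 for ACTG1, 2.27 for TMSB10, 2.06 for TPM4 and 0.791 (0.507 to 1.18) for TMSB4X. The first 4 differ from the rest by more than counting error, and the intervals of ACTB and PFN1 overlap. The members' median was 4.12, and that of the 400 genes with an FL peak at least as abundant as TPM1 was 3.07. ACTB ranked first of all genes by FL score and 4th by input count, whereas TMSB4X ranked 862nd by score and 70th by input count. In ΔNTR the value was 6.25 for ACTB and 9.51 for TPM1, and in ΔCTR it was 17.6 for ACTB and 3.50 for PFN1. These 3 genes differed from FL in the same direction as in score share. The value is not scaled to the list's total, and input levels differed little, so this was no independent check. Subtracting the log2 input difference between ΔNTR and FL lowered the share differences of PFN1, CFL1 and ACTG1 to 0.16, 0.40 and 0.28. ACTB and TPM1 stayed lower. For PFN1 and CFL1 that input difference, 0.18 and 0.12, exceeded the lower interval bounds of 0.06 and 0.09. Their higher ΔNTR shares were then no longer beyond counting error. In ΔCTR the input difference of TPM1 from FL, -0.07, lay beyond the upper interval bound of -0.06. Its share difference was then -0.31, no longer beyond counting error. For CFL1 and ACTN4 the input differences, 0.08 and 0.13, exceeded the upper bounds of 0.04 and 0.02. Their ΔCTR share differences were then -0.52 and -0.33, lower beyond counting error.

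**Figure D3:**
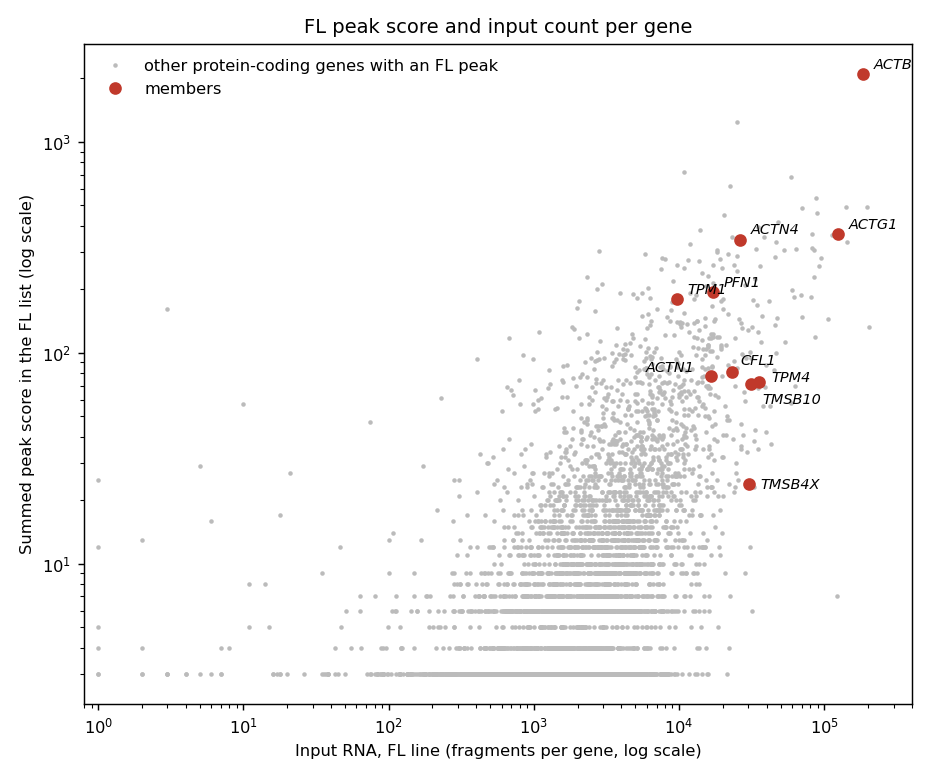
Summed FL peak score against the input count of the FL line per protein-coding gene with an FL peak, both on log axes, with members in red. ACTB lies highest at a score of 2098, and TMSB4X lies lowest of the members at a score of 24 with 30329 counts.

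The input was compared to ask whether the members' mRNA levels moved with the variants. In the order parental, FL, ΔNTR, ΔCTR, ΔLa-module, ΔNTD, the CPM of ACTB was 6971, 6555, 7177, 6905, 7448 and 7054. ACTG1 had 4374, 4411, 4587, 4557, 4835 and 4926 CPM. TPM1, the lowest, had 318, 342, 375, 326, 334 and 350. On the scale log2(CPM + 1) the largest difference from parental cells was that of TPM1 in ΔNTR, 0.24, and no member reached 0.32, the size called here, in any line. Over the 15078 genes of at least 1 CPM in 1 or more libraries, the share that did so was 9.54% (FL), 20.3% (ΔNTR), 11.6% (ΔCTR), 14.9% (ΔLa-module) and 16.3% (ΔNTD). Among the 440 genes as abundant as the members, between 2.27% (FL) and 10.5% (ΔNTR) reached it.

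Within these limits the members did not all lie on 1 side. TMSB4X was lower than parental in all 5 lines, with log2 differences of -0.10, -0.07, -0.10, -0.08 and -0.09. ACTG1 and TPM1 were higher in all 5, by 0.01 to 0.17 and 0.04 to 0.24. These signs were the same with every scaling tried. In the FL line 7 of the 10 members were lower, with a median of -0.04, and in ΔLa-module 9 were higher, with a median of 0.10, beside medians of 0.00 over all genes in both. As all lines share 1 parental library, its own deviation would enter every difference, and in bulk RNA a change per cell and a change in the mix of cells cannot be told apart.

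**Figure D4:**
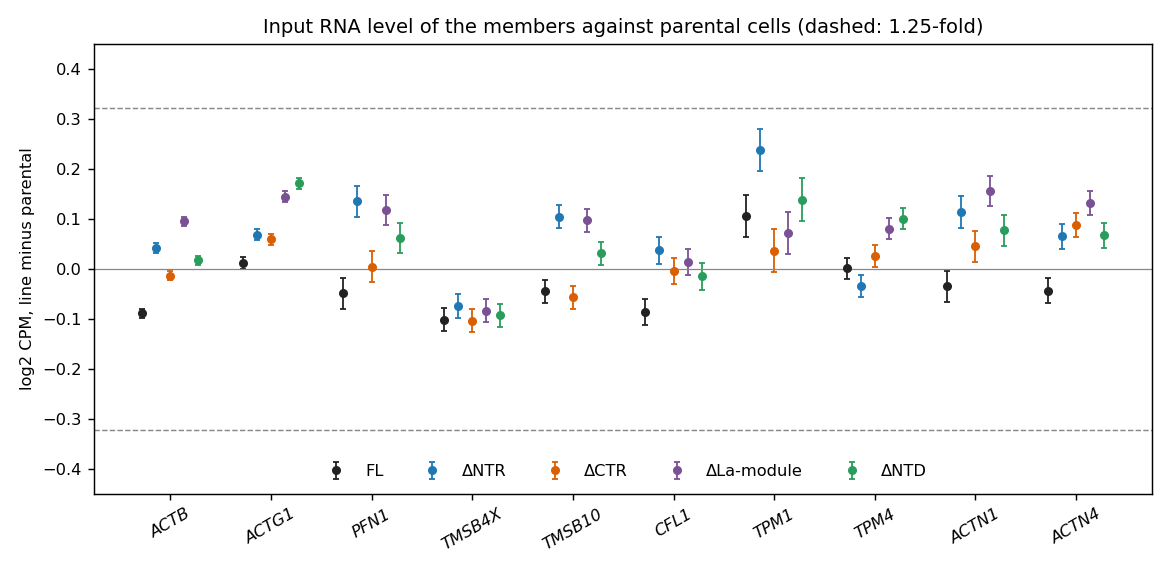
Log2 difference in input CPM from parental cells for each member in the 5 lines, with bars for the 95% counting interval and dashed lines at 0.32 and its negative. All points lie between -0.10 and 0.24, inside the dashed lines.

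Per kb of the MANE Select transcript, the parental levels were 3847 CPM per kb for ACTB, 2492 for TMSB10, 2279.5 for ACTG1, 1859 for TMSB4X, 782 for PFN1, 696 for CFL1, 508 for TPM4, 261 for TPM1, 193 for ACTN4 and 162 for ACTN1. ACTB was above TMSB10 in each of the 6 lines. TMSB10 and ACTG1 lay close together and changed order in ΔNTD, at 2546 and 2567. ACTN4 stayed above ACTN1 in all 6. By this measure ACTN4, whose FL score per 1000 counts was the second highest of the members, was 1 of the 2 lowest genes. TPM1 was divided here by its MANE Select length of 1217 nt, although its FL peaks lie in a transcript of 1807 nt. With the longer length TPM1 would be lower, so its order against ACTN4 depends on the transcript taken.

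Other genes of the actin cytoskeleton were taken as lists by role. Of 51, 47 were at 1 CPM or more in the FL line and 33 of these had an FL peak (70.2%), beside 38.6% of protein-coding genes at 1 CPM or more and 94.3% of those as abundant as the members. The genes of these lists were not matched to others by level, so the counts by role are a description. All 6 cross-linkers other than the α-actinins had one, led by FLNA (filamin A, score 364), FLNC (285) and FSCN1 (fascin, 79). So did all 3 genes of capping protein, CAPZA1 (26), CAPZA2 (22) and CAPZB (15), and 7 of 8 genes that anchor filaments to membranes and adhesions, led by VCL (vinculin, 118), MSN (moesin, 117) and RDX (radixin, 100, in 1 peak). Among nucleation factors 12 of 17 had one, led by WASF2 (85), ACTR2 (35) and ACTR3 (35). WDR1, a cofactor of cofilin, had 104, CFL2 7 and GSN (gelsolin) 6. Of 5 monomer-binding genes only CAP1 had an FL peak (17), and PFN2 and CAP2 had none in FL. TPM3 had 23 and TPM2 none. The muscle actins had no peak in any list, and ACTA2 had 667 input counts in the FL line.

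Like ACTB, RDX had its whole FL score of 100 in 1 peak, and its score was 48 in ΔNTR and 100 in ΔCTR. FLNA had 468 in ΔNTR and 376 in ΔCTR.

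In the input, 47 of these genes were at 1 CPM or more in at least 1 library. At least 0.32 above parental cells were 3 genes of the FL line (4.94% of all genes), 6 of ΔNTR (13.2%), 5 of ΔCTR (6.57%), 5 of ΔLa-module (8.83%) and 6 of ΔNTD (8.02%), and at most 1 was as far below. In at least 3 of the 5 lines, 5 genes were this far above, and they are named as a description only. The share of all genes that met this rule was not counted, and all lines were set against the same parental library. DIAPH2, a formin, was this far above in all 5 (0.33 to 0.49). TWF1 (twinfilin), FLNC, LCP1 (plastin 2) and ACTA2 (smooth-muscle actin) did so in 4, with counts in parental cells of 4837, 35831, 652 and 601. The highest difference was 0.65, of FLNC in ΔLa-module.

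The input libraries had 25027075 to 28692476 counts in genes. Of 8 markers of mesenchymal and glioblastoma cells 4 were abundant, with VIM at 7020.2 to 8007 CPM and CD44, FN1 and TNC all at 1589.8 CPM or more. NES was at 52 to 57.9 CPM and OLIG2 at 1.46 to 2.55, while GFAP was at most 0.240 CPM and SOX2 at most 0.0355, and both were at 0 in at least 1 line. Among markers of other cell types, PTPRC, EPCAM, PECAM1, RBFOX3 and CDH1 were at most 2.48 CPM, and SNAP25 was at 58.1 to 65.7. VIM, like TPM1, was highest in the ΔNTR line, and the part of such differences in the members' levels was not tested.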

How the data were processed

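The peak scores were deposited by the authors: reads matching rRNA or tRNA (Bowtie2) were discarded, the rest aligned with STAR, PCR duplicates collapsed with UMI-tools, peaks called per replicate with Clippy and merged over 3 replicates with their scores summed, and parental peaks removed with bedtools (2.30.0). The input counts were deposited by the authors as STAR (2.7.10b) gene counts after Trim Galore (0.6.10), and the reverse-strand column was used. The authors' annotation was an earlier GENCODE release of the same build. Depth of the iCLIP libraries is not given in the files. The 6 small RNA libraries were not used.

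Regions took the order CDS, 5′UTR, 3′UTR, ncRNA, intron. Score shares carry Wilson intervals, scores per count exact Poisson intervals and ratios exact binomial intervals at 95%. Input counts were scaled by TMM (edgeR 4.0.16, R 4.3.3) and compared as log2(CPM + 1), which understates differences of low genes. DESeq2 (1.42.0) size factors were an alternative. The scaling of the input counts was also run on simulated counts, with no result given here.

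All 10 members were named, with the 3 highest-scored genes of each other actin list, genes past the input threshold in at least 3 lines, and the 3 genes nearest to ACTB. Members and lists were chosen with earlier results of these data known.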

Additional observations from a re-analysis of the deposited data

Results flagged for a closer look

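ACTB and PFN1 differed from FL in opposite directions in the 2 deletions. The ACTB log2 score share was -0.76 in ΔNTR and 0.44 in ΔCTR relative to FL, and that of PFN1 was 0.35 in ΔNTR and -1.90 in ΔCTR. Each list merges its replicates, so whether the deletions differ was not tested, and both differences share the FL list.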

How the results depend on the processing

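No paired analysis was possible because each peak list merges its replicates without numbers and each line has 1 input library, and leaving out a replicate was not possible either. Of 393 alternative values for 111 results, 321 were classed as the same, 70 as moved and 2 as reversed. For counts the first class was wide and took in values that changed. FL member peaks went from 92 to 69 without score 3. Genes past the input threshold in FL went from 1439 to 1947 with a pseudocount of 0.5 CPM. Some values not counted as reversed also changed sign, among them the ACTN4 share in ΔNTR and small input differences of ACTB, PFN1, CFL1 and TPM4. Calling ambiguous positions 3′UTR gave 68.5%, 72.4% and 68.9% of member peaks (FL, ΔNTR, ΔCTR). Leaving out peaks of score 3 left 48 ΔCTR, 5 ΔLa-module and 1 ΔNTD member peaks and put the 10 members in ΔNTR at -0.18. Against the total at shared sites that value reversed to 0.19, and 2 members were 2-fold apart. With genes and list both limited to shared sites, chosen after seeing the data, it was -0.12, the ΔCTR value 0.38, and TPM4 in ΔCTR reversed to 0.35. Requiring an overlap of 50% of both peaks gave 42.4% (ΔNTR) and 38.0% (ΔCTR). Without the CPM filter 2237 genes passed the input threshold in FL. PFN1 and CFL1 overlap other genes, and unstranded counting gave 16.5 and 5.13 score per 1000 counts in FL.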

Other observations

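The genome holds 64 annotated pseudogenes named after the members, and few carried peaks. ACTG1P25 had a peak of 3 in FL and 5 in ΔNTR, ACTG1P9 one of 3 in FL, TPM4P2 one of 4 in ΔNTR and ACTBP2 one of 3 in ΔNTR. Reads from near-identical copies cannot be assigned with certainty.

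The member peaks were wider than the others, with a median width of 29 nt in FL, 31 in ΔNTR and 29 in ΔCTR, against 22, 23 and 23 over all peaks. In FL 28 of 92 member peaks scored at least 10, against 1929 of all 14334. Widths were not compared at equal score, so the part of score in this difference was not tested.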
